A study of Homo sapiens with 17 samples.

Results

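Insulin-like growth factor (IGF) binding proteins and the insulin and IGF receptors with their docking proteins were examined as a set of 10 genes of the 60662 in the count table. The members were set by name, with no threshold on their values but with earlier results of these data known: IGFBP1 to IGFBP6, the receptor genes IGF1R and INSR, and the docking protein genes IRS1 and IRS2. Of these 10 genes, 9 had enough reads to be tested between progesterone and its vehicle, and IGFBP1 did not.

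Gene expression was measured by RNA sequencing of Ishikawa cells, an established line from a human endometrial adenocarcinoma that is used as a model of the endometrial epithelium. All groups grew in the same medium with charcoal-stripped serum, from which steroids are removed, and the treated groups were exposed for 24 h. The control group (n = 3) received medium alone. The Nap only group (n = 2) received a vehicle that the labels call Nap and do not define. The vehicle control group (n = 3) received Nap with ethanol, which its label gives as 70% EtOH. The P4 treated group (n = 3) received Nap with progesterone (P4). Its labels do not name ethanol, so P4 and a difference in ethanol cannot be told apart in the comparison with the vehicle control, and the P4 concentration is not printed because the sources used here give different ones. A further 6 libraries from cells given recombinant human PSAT1, an enzyme of serine synthesis, with or without P4, carried labels that contradicted each other and entered no comparison. As all libraries come from 1 tumour line, the replicates are cultures of that line and not patients.

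In bodily fluids and in tissue, IGF binding proteins hold IGF-1 and IGF-2, prolong their life and limit or direct their access to receptors. IGF1R and INSR are receptor tyrosine kinases that, once bound, phosphorylate IRS1 and IRS2, which recruit PI3-kinase and so start the AKT and mTOR cascades of growth and nutrient storage. In the uterus the IGF system is known to be under the control of ovarian steroids, and IGFBP1 is a classical product of the decidualised stroma rather than of the glands.

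The promoter windows of the members that differed most with P4 (IGFBP5, IGFBP4 and IRS2) and of the most abundant member (IGFBP3) are shown so that the genes behind the values can be read. They are RefSeq sequences of GRCh38.p14, from 250 bases before to 50 bases after the start site, written 5′ to 3′ on the strand of the gene. Capitals mark matches, on either strand, to a CCAAT box, a TATA box (TATAAA), an SP1 GC box (GGGCGG), the core of a steroid receptor element (ACANNNTGT), a FOXO site (GTAAACA), an insulin response core (CAAAACAA) or an ATF4 site (TGATGNAA).
IGFBP5 (chr2:216695500-216695799, minus strand): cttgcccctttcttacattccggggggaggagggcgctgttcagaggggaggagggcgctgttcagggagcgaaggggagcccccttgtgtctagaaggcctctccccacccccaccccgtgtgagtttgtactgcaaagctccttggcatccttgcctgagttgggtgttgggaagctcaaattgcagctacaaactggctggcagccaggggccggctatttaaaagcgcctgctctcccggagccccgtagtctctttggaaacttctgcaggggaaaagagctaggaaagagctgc
IGFBP4 (chr17:40443200-40443499, plus strand): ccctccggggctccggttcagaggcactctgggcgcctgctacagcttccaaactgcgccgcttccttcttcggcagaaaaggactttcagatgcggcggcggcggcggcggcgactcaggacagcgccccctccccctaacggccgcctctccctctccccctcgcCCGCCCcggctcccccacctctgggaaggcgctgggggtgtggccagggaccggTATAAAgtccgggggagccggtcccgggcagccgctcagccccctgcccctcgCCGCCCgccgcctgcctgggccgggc
IGFBP3 (chr7:45921223-45921522, minus strand): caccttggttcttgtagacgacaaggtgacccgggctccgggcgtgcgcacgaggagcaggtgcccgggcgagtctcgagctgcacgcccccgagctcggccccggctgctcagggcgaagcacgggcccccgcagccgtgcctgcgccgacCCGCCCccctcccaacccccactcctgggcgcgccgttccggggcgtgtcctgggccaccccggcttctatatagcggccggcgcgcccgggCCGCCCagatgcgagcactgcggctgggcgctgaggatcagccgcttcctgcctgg
IRS2 (chr13:109786534-109786833, minus strand): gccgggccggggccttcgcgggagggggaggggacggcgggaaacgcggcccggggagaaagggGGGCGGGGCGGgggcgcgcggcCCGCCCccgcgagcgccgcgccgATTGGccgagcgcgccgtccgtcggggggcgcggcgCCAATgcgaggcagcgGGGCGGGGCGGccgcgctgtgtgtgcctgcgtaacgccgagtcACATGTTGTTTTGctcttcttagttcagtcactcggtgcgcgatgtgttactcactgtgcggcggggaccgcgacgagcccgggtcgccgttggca

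An entry was found for 9 of the 10 members, and for IGFBP2 there were several. The IGFBP5 window held no match to any of these letters, and its GC content was 59.0%, against 74.0% for IGFBP4, 74.7% for IGFBP3 and 75.7% for IRS2. The IGFBP4 window held a TATA box at position -29 from the start site, a match present in 11.5% of the 35116 promoter windows. The IRS2 window held the insulin response core on the minus strand at position -41, a match in 1.68% of all windows. It overlaps the steroid core at -46, which 5.37% of windows held. GC boxes were found in 45.0% of all windows, CCAAT boxes in 34.6%, FOXO sites in 3.42% and ATF4 sites in 3.62%. Among the members the FOXO letters were found in the IGFBP6 window, at -186, and the ATF4 letters in none. These matches describe letters and not bound sites.

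Library totals ran from 4999521 to 19704493 counts over the 17 libraries, with a median of 12964362, and the smallest total was that of vehicle control replicate 1. Levels are given as CPM, the usual depth-scaled count, with library sizes scaled by TMM, and levels compared between genes as CPM per kilobase of exon (RPKM). Exon length is that of the merged exons of all annotated transcripts, 4571 bases over 11 transcripts for IGFBP3 and 6442 over 3 for IGFBP5. The order of genes in RPKM depends on this length and was not tested with another. At these depths 3 counts, taken here as the floor of detection, correspond to 0.156 to 0.575 CPM. The 8 epithelial markers gave a summed level of 1593 to 1619 CPM in the vehicle control and 1200 to 1333 CPM in the P4 treated libraries. Of the 8, the adhesion gene CDH1 rose from 264 to 315 CPM. EPCAM (178 and 189 CPM) and MUC1 (2.44 and 1.33 CPM) did not pass the test. The others fell against the vehicle control, such as the keratin gene KRT8 (399 to 248 CPM) and the tight junction gene CLDN4 (84.2 to 31.9 CPM). Among these, PAX8 went from 350 to 221 CPM, but was at 225 CPM in the control and 230 CPM in Nap only. Of 12 markers of leukocytes, endothelium, stroma and blood, CDH5 had no count in any library, 8 stayed under 1 CPM throughout, and their sum was 33.0 to 39.0 CPM in the vehicle control and 32.9 to 38.4 CPM with P4. Within that sum the smooth muscle actin gene ACTA2 went from 4.04 to 12.8 CPM and the collagen gene COL1A1 from 30.0 to 22.7 CPM. The progesterone receptor gene PGR was at 111 CPM in the control, 57.5 CPM in the vehicle control and 21.7 CPM with P4. The part of these levels in the results below was not tested, and in bulk RNA fewer cells of a kind and less RNA per cell cannot be told apart.

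In untreated cells, by RPKM over merged exons, the transcripts of IGFBP3, IGFBP5 and IGFBP2 were the most abundant of the set, led by IGFBP3. The docking protein transcripts were low, and those of the binding proteins IGFBP4 and IGFBP1 were the lowest. In RPKM, control means were 72.8 for IGFBP3, 13.4 for IGFBP5, 7.64 for IGFBP2, 3.83 for INSR and 2.81 for IGFBP6. IGF1R followed at 1.34 RPKM, IRS1 at 1.18 RPKM and IRS2 at 0.542 RPKM. IGFBP4 and IGFBP1 lay at the bottom with 0.104 and 0.0472 RPKM, and these were the only neighbours in the order whose control libraries overlapped.

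P4 treated cells had a different order. With these exon lengths, IGFBP3 at 45.9 ± 6.67 RPKM (SD, n = 3) and IGFBP5 at 44.1 ± 1.29 RPKM (SD, n = 3) overlapped. Whether they would with other lengths was not tested. IRS2 stood at 6.29 ± 2.46 RPKM (SD, n = 3), and its libraries overlapped those of both of its neighbours, IGFBP2 at 7.00 RPKM and INSR at 5.86 RPKM. IRS1 (2.22 RPKM), IGFBP6 (2.07 RPKM) and IGF1R (1.90 RPKM) followed, each overlapping the next, and then IGFBP4 at 1.53 RPKM, clear of IGF1R above and IGFBP1 below. Within a library, the ratio of IGFBP5 to IGFBP3 in RPKM was 0.158 to 0.207 in the 3 control libraries and 0.159 to 0.208 in the 3 vehicle control libraries, and 0.815, 1.13 and 0.978 in P4 treated replicates 1 to 3. For IRS2 over IRS1 the ratio was 0.398 to 0.512 in the control, 0.463 to 0.612 in the vehicle control and 2.03, 3.53 and 2.75 with P4. Both pairs shifted in relative level in every P4 library. INSR over IGF1R was 2.96 to 3.16 with P4, overlapping the control at 2.74 to 3.07 and lying just above the vehicle control at 2.33 to 2.95.

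**Figure D1:**
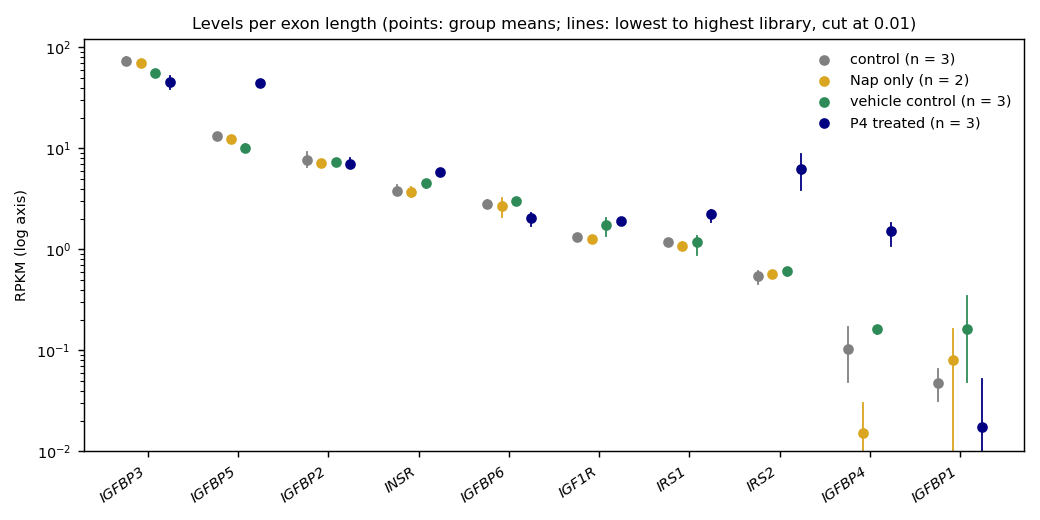
Levels of the 10 genes in RPKM on a log axis, ordered by the control mean, with points for group means and lines from the lowest to the highest library. IGFBP5 and IRS2 with P4 lie well above their other groups, IGFBP5 reaching 44.1 RPKM beside 45.9 RPKM for IGFBP3. The heights of different genes depend on the merged exon lengths used.

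The main comparison set P4 treated against vehicle control libraries, in which P4 and a difference in ethanol cannot be told apart. Between P4 treated and vehicle control libraries, 7 of the 9 tested members were called at an adjusted p under 0.05, with 5 higher and 2 lower. The share called over all 16540 genes tested was 53.0%, with 26.6% called higher and 26.5% called lower, so a call was the usual outcome for a gene in this comparison. By size, 3 of the 9 (IGFBP4, IGFBP5 and IRS2) were called with a change beyond 1 log2 unit. Of all genes tested, 12.4% were. The median absolute log2 fold change was 0.54 over the members and 0.38 over all genes. The members were chosen with earlier results of these data known, and IGFBP4 entered the test only through its P4 libraries. These shares and medians are therefore a description and not support for a change of the set.

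IGFBP5 encodes a binding protein that also attaches to extracellular matrix, and the gene lies at chr2:216672105-216695525 on the minus strand of GRCh38, beside IGFBP2. Its level was 60.4, 71.7 and 64.2 CPM in vehicle control replicates 1 to 3 and 275, 285 and 291 CPM in P4 treated replicates 1 to 3. All P4 libraries lay far above all vehicle libraries and differed little among themselves. The log2 fold change was 2.09 ± 0.07 (SE), 4.27-fold, with an adjusted p of 1.7e-09 in the quasi-likelihood test of edgeR (Benjamini-Hochberg adjustment over all genes). Of its exon bases 4.63% overlap an antisense gene, AC007563.2, which had no count in any library.

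IRS2 (chr13:109752698-109786568, minus strand) encodes the docking protein that carries much of the insulin signal in liver and beta cells. It stood at 4.41, 5.16 and 5.32 CPM in the vehicle control replicates and at 31.3, 71.3 and 51.0 CPM with P4. The lowest P4 library was thus well above every vehicle library, although the P4 libraries spread more than for any other member called here. The log2 fold change was 3.32 ± 0.33 (SE), 9.99-fold, with an adjusted p of 7.3e-05 in edgeR's test, and leaving out 1 library at a time gave log2 values from 3.02 to 3.57. An antisense gene, AL162497.1, shares 1.41% of its exon bases and had at most 1 count in a library.

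IGFBP4 (chr17:40443461-40457731, plus strand), whose product is known mainly as an inhibitor of IGF action that the protease PAPP-A cleaves, was scarce without P4. It had 2, 5 and 4 counts in the vehicle control replicates and 25, 47 and 48 counts with P4, that is 0.322 to 0.383 CPM against 2.41 to 4.04 CPM. Summed and scaled for library size, the ratio was 9.69 with a 95% interval of 5.22 to 19.9 that covers counting error only. The adjusted p of the fitted change was 1.3e-05 in edgeR's test. IGFBP4 passed the count filter only through its P4 libraries, where it was high, so this p is no independent support for the change. The groups did not overlap, but the level reached with P4 remained low beside IGFBP3 or IGFBP5.

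IRS1, the docking protein of muscle and fat and of many tumour lines, was also higher with P4, by less than IRS2. Its vehicle control libraries held 8.82, 13.6 and 12.9 CPM and its P4 libraries 18.9, 24.7 and 22.7 CPM, without overlap. The log2 fold change of IRS1 was 0.84 ± 0.15 (SE), with an adjusted p of 4.7e-04 in edgeR's test.

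Of the receptors, INSR rose and IGF1R did not pass the test. INSR, the insulin receptor, went from 42.0, 49.4 and 49.6 CPM in the vehicle control to 58.2, 61.3 and 64.4 CPM, a log2 fold change of 0.36 ± 0.08 (SE) with an adjusted p of 0.00344 in edgeR's test. This change is close to the median absolute change of all genes. IGF1R, the main receptor for IGF-1, was at 19.0, 28.3 and 26.1 CPM in the vehicle control and at 26.3, 25.9 and 27.2 CPM with P4. Its groups overlapped, its log2 fold change was 0.06 with a 95% interval of -0.21 to 0.33 and an adjusted p of 0.709 in edgeR's test, and it came to -0.05 without vehicle control replicate 1 and to -0.03 with upper-quartile scaling.

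The other binding proteins moved little or downward. IGFBP3, which carries most circulating IGF, fell from 269, 245 and 256 CPM in the vehicle control to 239, 178 and 211 CPM, without overlap between the groups. The log2 fold change was -0.30 ± 0.09 (SE), with an adjusted p of 0.0157 in edgeR's test. That call was lost without vehicle control replicate 1 (adjusted p = 0.0810 by edgeR) or without P4 treated replicate 3 (adjusted p = 0.0546 by edgeR), and without P4 treated replicate 2 the change was -0.19. IGFBP6, a binding protein that prefers IGF-2, was at 4.22, 4.13 and 3.79 CPM in the vehicle control and at 3.08, 2.32 and 2.98 CPM with P4. Its log2 fold change was -0.54 ± 0.20 (SE), with an adjusted p of 0.0403 in edgeR's test. With DESeq2 the adjusted p was 0.213, and the call also went without any single vehicle control replicate (adjusted p = 0.0798, 0.127 and 0.0769 by edgeR for replicates 1 to 3) and without P4 treated replicate 2 (0.136) or 3 (0.0775). IGFBP2, a binding protein of early development and of many tumours, lay at 33.0 to 37.1 CPM in the vehicle control and at 30.2 to 38.1 CPM with P4, a log2 fold change of -0.10 with a 95% interval of -0.32 to 0.13.

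IGFBP1 had 3, 2 and 1 counts in the vehicle control replicates, 2, 1 and 1 in the control, 0 and 4 in Nap only and 0, 1 and 0 with P4. Only 1 of these libraries exceeded the floor, so no fold is given, and a change in this hallmark of decidualised stroma was not detectable at this depth.

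**Figure D2:**
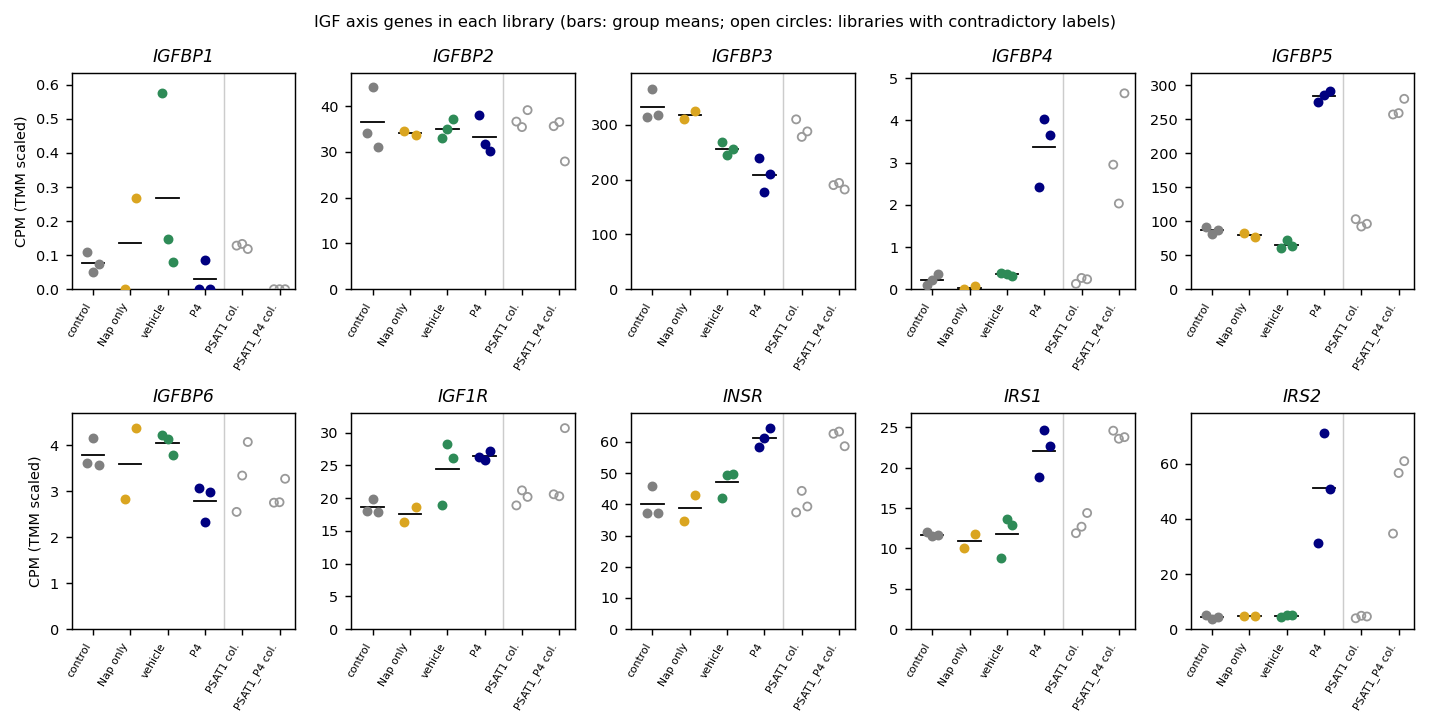
CPM of each member in every library, with 1 panel per gene, a linear axis from 0, filled points for libraries with a group, black bars for group means and open circles for the 6 libraries with contradictory labels. P4 treated libraries lie apart from the 3 other groups for IGFBP4, IGFBP5, INSR, IRS1 and IRS2, where they are higher, as in IGFBP5 with 275 to 291 CPM, and for IGFBP3, where they are lower, with 178 to 239 CPM. The share of all genes lying apart in this way was not computed, so the separation describes these libraries and is no result about the members as a set.

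The comparisons with the other groups without P4 share the P4 libraries, so they are not independent of the one above. Against the control, 7 of 9 tested members were called, with 6 higher and 1 lower, while 54.8% of 16620 genes were called (26.8% higher, 28.0% lower). Against Nap only, again 7 of 9 were called with 6 higher and 1 lower, while 49.7% of 16987 genes were called (24.8% higher, 24.9% lower). The control libraries held 91.3, 81.4 and 86.7 CPM of IGFBP5 and the Nap only libraries 82.6 and 77.4 CPM. The log2 fold changes of the P4 treated group against them were 1.69 ± 0.09 (SE) and 1.80 ± 0.09 (SE). For IRS2, at 5.01, 3.75 and 4.46 CPM in the control and 4.72 and 4.63 CPM in Nap only, they were 3.52 ± 0.34 (SE) and 3.42 ± 0.37 (SE). These levels are close to those of the vehicle control for IRS2 and above them for IGFBP5.

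For IGFBP4 the control had 2, 4 and 5 counts and Nap only had 0 and 1. Here too it entered the tests only through its P4 libraries. The scaled ratio of P4 to control was 15.9 with a counting interval of 8.58 to 32.7. Against the single count of Nap only it was 94.3 with an interval of 16.6 to 3755, which leaves its size undetermined. IRS1 was at 12.0, 11.5 and 11.7 CPM in the control. In the P4 treated group it was higher by a log2 fold change of 0.89 ± 0.13 (SE) against the control and 0.99 ± 0.15 (SE) against Nap only.

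Some members read differently depending on the reference group. IGF1R was called higher with P4 against the control, by 0.48 ± 0.11 (SE) on the log2 scale with an adjusted p of 0.00112 in edgeR's test, and against Nap only by 0.56 ± 0.12 (SE), but not against the vehicle control. IGFBP3 was lower by -0.69 ± 0.11 (SE) against the control and -0.63 ± 0.11 (SE) against Nap only, compared with -0.30 against the vehicle control. IGFBP6 was not called against the control (-0.46, adjusted p = 0.0792 in edgeR's test) or Nap only (-0.41, adjusted p = 0.228 in edgeR's test). INSR was higher by 0.59 ± 0.10 (SE) and 0.63 ± 0.11 (SE), and IGFBP2 was called in neither (-0.16 and -0.06).

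The vehicle itself was examined next. Between vehicle control and control, 3 of the 8 tested members were called, with 1 higher and 2 lower, while 22.6% of 16673 genes were called (11.9% higher, 10.7% lower). IGFBP5 was lower in the vehicle control by -0.39 ± 0.08 (SE) on the log2 scale, with an adjusted p of 0.00142 in edgeR's test, so that vehicle and P4 stood on opposite sides of the control for this gene. IGFBP3 was at 314, 366 and 318 CPM in the control and was lower in the vehicle control by -0.38 ± 0.08 (SE), with an adjusted p of 0.00146 in edgeR's test. IGF1R was at 18.1, 19.9 and 17.9 CPM in the control and was higher by 0.43 ± 0.12 (SE), with an adjusted p of 0.0115 in edgeR's test. Vehicle control replicate 1, at 19.0 CPM, lay within the control range of IGF1R and the other vehicle libraries above it. The call was lost without vehicle control replicate 2 (0.31, adjusted p = 0.136 by edgeR) or replicate 3 (0.39, adjusted p = 0.0670 by edgeR). INSR was 0.24 ± 0.09 (SE) higher and missed the threshold (adjusted p = 0.0667 in edgeR's test), but passed it without control replicate 2 (0.36, adjusted p = 0.00255 by edgeR). IGFBP2, IGFBP6, IRS1 and IRS2 had log2 differences between -0.05 and 0.20 and were not called.

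None of the 8 tested members was called between Nap only and control by edgeR's test, with log2 differences from -0.11 to 0.09. The share called over all 17166 genes was 0.00% (0 genes), with 217 genes at an unadjusted p under 0.05 and 1 gene called by DESeq2. With the replicate number as a block, edgeR called 42 genes, none of them a member. With 2 Nap only libraries the intervals were wide: that of IGFBP6 ran from -0.55 to 0.43 and that of IRS2 from -0.34 to 0.53.

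Between vehicle control and Nap only, which by the labels differ in ethanol, 4 of 8 members were called, with 2 higher and 2 lower, while 23.8% of 16935 genes were called (12.7% higher, 11.2% lower). IGFBP3 was lower by -0.31 ± 0.06 (SE) and IGFBP5 by -0.27 ± 0.07 (SE), with adjusted p of 3.8e-04 and 0.00942 in edgeR's test. IGF1R was higher by 0.52 ± 0.13 (SE) and INSR by 0.30 ± 0.09 (SE), with adjusted p of 0.00478 and 0.0277 in edgeR's test. The count dropped to 2 without Nap only replicate 1 and without vehicle control replicate 2 or 3. The IGFBP5 call was lost without Nap only replicate 1 (adjusted p = 0.0513 by edgeR) and without vehicle control replicate 3 (0.0596), the IGF1R call without vehicle control replicate 2 (0.0647), and the INSR call without Nap only replicate 1 (0.278), without vehicle control replicate 2 (0.134) and without replicate 3 (0.127). INSR was also lost with DESeq2 (adjusted p = 0.127). IGFBP4 was not tested here, with 11 counts in the vehicle control against 1 in Nap only. Its scaled ratio was 9.73 with a counting interval of 1.41 to 419, which leaves its size undetermined. The comparison of vehicle control with Nap only shares the vehicle libraries with that of vehicle control with control.

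**Figure D3:**
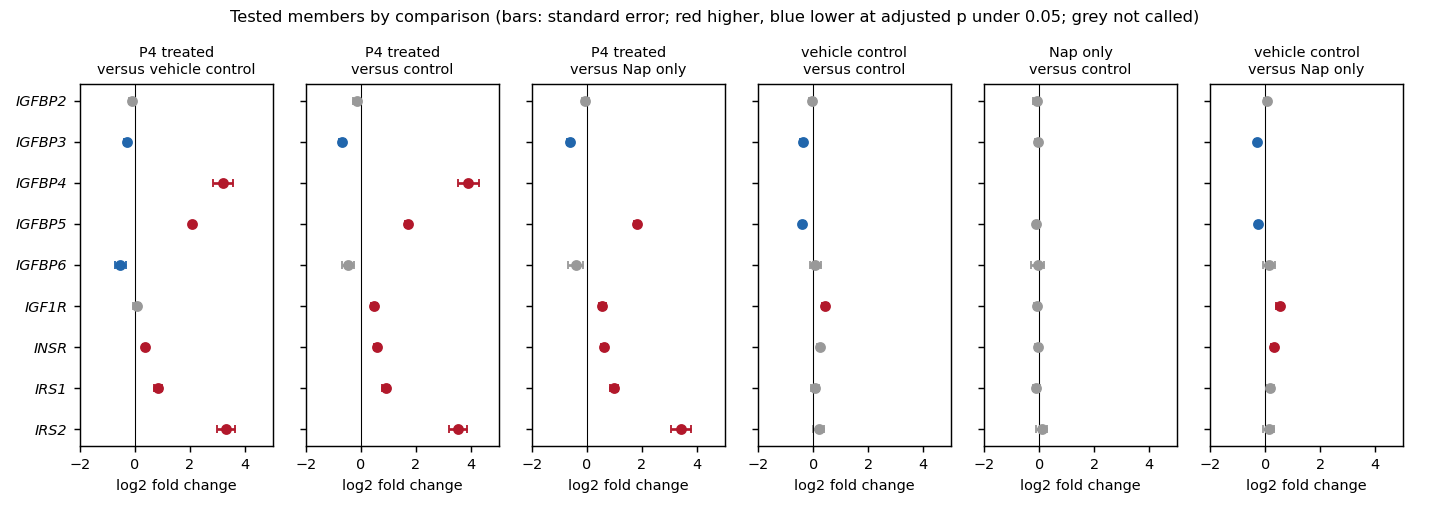
Log2 fold changes of the tested members in the 6 comparisons, first group minus second, with standard errors as bars and colours for the call at an adjusted p under 0.05. IGFBP4 was too low to test among the groups without P4 and is left out beside Nap only, where it had 1 count. The changes in IGFBP5 and IRS2 with P4, 2.09 and 3.32 against the vehicle control, exceed all tested differences among the groups without P4, which do not include IGFBP4.

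Ligands of the system gave next to no reads. IGF1 had at most 2 counts in any library, and INS and IGF2 were listed at 0 in all 17, under a floor of 3 counts. The IGF2 gene shares 73.7% of its exon bases with another gene record of that name and 20.9% with INS-IGF2, both also listed at 0, and reads in shared exons can go uncounted, so the level of IGF2 is unknown here.

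Beyond the members, 63 further genes of the pathway were grouped by role, of which 52 were tested between P4 treated and vehicle control. Of these, 21 were higher, 9 were lower and 22 were not called, so that 57.7% were called beside 53.0% of all genes. Of all genes tested, 26.6% were called higher and 26.5% lower. The median log2 fold change was 0.16 over the lists and -0.01 over all genes. The share called is near that of genes at large. As the lists were chosen with earlier results of these data known, these values are a description. Of the 52, 6 were called beyond 1 log2 unit, a share near the 12.4% of all genes tested.

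Upstream of the receptors, neither of the 2 tested further carriers was called, IGFBP7 at 0.35 (adjusted p = 0.0645 in edgeR's test) and IGFBPL1 at -0.22. Of 3 tested genes for proteases of binding proteins and their inhibitors, 1 was called (33.3%, beside 53.0% of all genes). STC2, stanniocalcin 2, which inhibits PAPP-A, rose from 63.5 ± 7.94 CPM (SD, n = 3) to 191 ± 26.7 CPM (SD, n = 3), a log2 fold change of 1.56 ± 0.11 (SE). PAPPA, the gene of PAPP-A itself, had 0 counts over the vehicle control libraries and 1 over the P4 libraries, too low to test. IGF2R, the receptor that clears IGF-2, rose from 197 to 301 CPM (0.60 ± 0.08 SE), and INSRR, an orphan relative of INSR, was too low to test.

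Among 14 tested adaptors and their regulators, 6 were higher and 2 lower (57.1% called, beside 53.0% of all genes). GRB10, which binds and restrains the insulin and IGF-1 receptors, rose from 75.0 ± 5.15 to 244 ± 21.4 CPM (mean ± SD of 3 libraries), by 1.68 ± 0.08 (SE) on the log2 scale, with an adjusted p of 1.5e-08 in edgeR's test. SH2B1, an adaptor that enhances receptor signalling, fell from 32.6 to 18.4 CPM (-0.83 ± 0.10 SE). Thus the docking protein genes IRS1 and IRS2 and the gene of a receptor inhibitor rose together.

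Of 9 tested genes for PI3-kinase and lipid phosphatases, 3 were higher and 2 lower (55.6% called, beside 53.0% of all genes). PIK3CA, the catalytic subunit p110 alpha, rose by 0.95 ± 0.09 (SE) to 108 CPM, and PIK3R3, a regulatory subunit, fell by 0.80 ± 0.06 (SE) on the log2 scale, from 158 to 91.4 CPM. Of 11 genes of the AKT arm, 4 were higher and 2 lower (54.5% called, beside 53.0% of all genes). TRIB3, a pseudokinase known to bind AKT, rose from 18.0 ± 0.697 to 368 ± 47.4 CPM (mean ± SD of 3 libraries), by 4.34 ± 0.10 (SE) on the log2 scale, the largest in the pathway lists. AKT1 itself fell from 146 to 112 CPM (-0.40 ± 0.07 SE).

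In the mTOR arm 6 of 12 tested genes were higher and 3 lower (75.0% called, beside 53.0% of all genes). With 12 genes in a list chosen with earlier results known, this share is a description. The translation repressors of the 4E-BP family went in opposite directions. EIF4EBP1 rose from 41.3 to 115 CPM (1.45 ± 0.09 SE) and EIF4EBP2 fell from 268 to 108 CPM (-1.32 ± 0.13 SE), with adjusted p of 9.2e-08 and 1.4e-05 in edgeR's test. All genes named from these lists with a direction were called in that test.

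**Figure D4:**
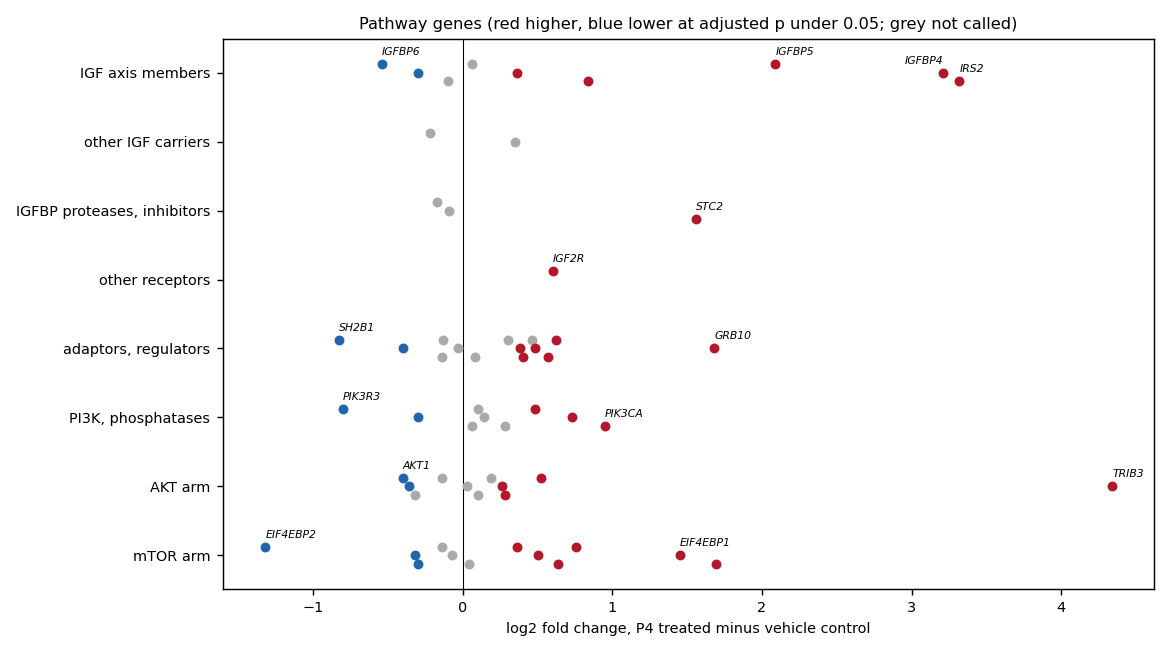
Log2 fold change of each tested gene, P4 treated minus vehicle control, with 1 row for the members and 1 for each pathway list, and colours for the call at an adjusted p under 0.05. Most genes of the lists lie within 1 log2 unit of 0, and 6 lie outside: TRIB3 at 4.34, GRB10 at 1.68, STC2 at 1.56, EIF4EBP1 at 1.45, EIF4EBP2 at -1.32 and, named only after its value was seen, DDIT4 at 1.69.

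Likeness to other genes was computed for IGFBP5, IRS2 and INSR. Across the 11 libraries with a group, the genes whose log2 CPM followed IGFBP5 most closely were INHBE (Pearson r = 0.995), GOT1 (0.993) and AHCYL1 (0.993), and 561 of 17908 genes had an r above 0.95. For IRS2 the closest were ERN1 (0.998), SNX18 (0.998) and DUSP16 (0.997), and 983 genes had an r above 0.95. For INSR the closest were APP (0.989), RNF24 (0.981) and CTDSP2 (0.980), and 41 genes had an r above 0.95. The P4 libraries form 1 end of each of these relations, and the values are given as a description.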

How the data were processed

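RNA from Ishikawa cells was sequenced as single-end reads from stranded total RNA libraries. Per the study's methods, the authors trimmed reads with Cutadapt, filtered them, mapped them with Subread (unique alignments only) and counted them per gene with featureCounts on GENCODE 31. The deposited table holds whole counts, not normalized. The strand setting is not given in the sources used here. All 17 columns were matched to samples by their descriptions, and 0 columns were left without a sample. Titles call the replicates biological. Samples were grouped by title and treatment, and 6 libraries whose title and column name disagree on PSAT1 and P4 were left out of the tests.

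Gene names, coordinates and exon lengths were taken from the GENCODE 29 annotation of GRCh38, which held 58587 of the 60662 IDs. A gene name table supplied names for 2054 more, and 21 had none. The members and gene lists were chosen with earlier results of these data known. All members are named in every comparison. From each pathway list the text names the gene of smallest adjusted p in each direction for P4 treated versus vehicle control, with any ligand or receptor. It also gives the carriers, the untested receptor and the untested protease gene PAPPA beside the counts of their lists. For likeness it names the 3 genes of highest Pearson correlation of log2 CPM (prior count 2).

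Each of 6 comparisons was fitted on its own groups in edgeR 4.0.16 (R 4.3.3) with TMM scaling, filterByExpr at a minimum count of 10 and the robust quasi-likelihood test, with Benjamini-Hochberg adjustment over all genes tested. A gene was called at an adjusted p under 0.05. Standard errors are the log2 fold change divided by the square root of F, in absolute value. The script was tested on simulated data. Alternatives were DESeq2 1.42.0, RLE and upper-quartile scaling, other count filters, a fit of all 4 groups, a replicate block and leaving out each library. Replicates differed by more than counting error, with chi-square per degree of freedom of 1.48 to 18.3 between libraries of a group. Promoter sequences came from RefSeq. Figures were drawn with matplotlib 3.10.9.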

Additional observations from a re-analysis of the deposited data

Results flagged for a closer look

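The 6 libraries whose labels contradict each other were examined for the members after the comparisons. Their column names read PSAT1 in 3 libraries and PSAT1_P4 in the other 3, and the sample titles and treatments give the reverse, so which libraries received P4 was not settled here. In the libraries whose columns read PSAT1_P4, several members lay above every control library. The lowest value was 2.03 CPM for IGFBP4 (highest control 0.372 CPM), 257 CPM for IGFBP5 (91.3 CPM), 20.3 CPM for IGF1R (19.9 CPM), 58.6 CPM for INSR (45.8 CPM), 23.6 CPM for IRS1 (12.0 CPM) and 34.7 CPM for IRS2 (5.01 CPM). In the libraries whose columns read PSAT1, IGFBP5 lay above every control library by a narrow margin, its lowest value being 92.2 CPM beside 91.3 CPM. IGFBP1, at 2 counts in each, also lay above the control on the CPM scale but under the floor of 3 counts. The share of all genes lying above every control library was not computed, so these values are no result about the members as a set. The 54.8% of genes called between P4 treated and control is a different measure, from other libraries.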

How the results depend on the processing

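Under the alternatives tried for P4 treated versus vehicle control, 104 of 116 values kept direction and call. The call was lost in 10, all of IGFBP3 or IGFBP6 and not all named above, and 2 reversed. IGF1R reversed with upper-quartile scaling (-0.03) and spanned -0.05 to 0.18 over the fits without 1 library. The number of members called there was 6 with DESeq2, 7 with the replicate block and 5 to 7 without 1 library, the 5 arising without vehicle control replicate 1 or P4 treated replicate 3. Pathway genes called were 26 to 33 without 1 library and 32 with the replicate block. Same-numbered P4 treated and vehicle control libraries did not deviate together (correlations -0.0424 to 0.0511 over 15660 genes, 3 of 6 libraries closest to their own number), so the numbers were not taken as pairs. In the replicate block fit, INSR was called between vehicle control and control (adjusted p = 0.0422 in edgeR's test), INSR was lost between vehicle control and Nap only (0.0717), and IGFBP2 reversed between P4 treated and Nap only (0.01). Nap only and control libraries of the same number did deviate together (0.307 and 0.351), with only 2 pairs, and the block called 42 genes where 0 were called without it, by edgeR. Without the filter 3 genes were called, and 1 each with DESeq2 and with all 4 groups fitted. Between vehicle control and Nap only, 4034 genes were called, but 2130 with DESeq2 and 1912 with all 4 groups fitted, and 2 to 4 members were called without 1 library.

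Fits without 1 library changed the sign of values that were not called. IGFBP2 spanned -0.25 to 0.00 for P4 treated versus control, -0.16 to 0.01 versus Nap only, and -0.15 to 0.11 for vehicle control versus control, where IRS1 spanned -0.05 to 0.18. IGFBP6 spanned -0.13 to 0.49 for vehicle control versus Nap only. For Nap only versus control the ranges were -0.19 to 0.07 for IGFBP2, -0.10 to 0.02 for IGFBP3, -0.42 to 0.21 for IGFBP6, -0.18 to 0.01 for IGF1R, -0.21 to 0.10 for INSR, -0.23 to 0.01 for IRS1 and -0.02 to 0.20 for IRS2. The cause was not tested. Fits that leave 1 Nap only library assume that it varies like the other group. Depth limits IGFBP1 and IGFBP4, which lay near 3 counts without P4, and no protein was measured.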

Other observations

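Values of the same 6 libraries are given here without an assignment. In the columns that read PSAT1_P4, replicates 1 to 3 held 34.7, 56.7 and 61.0 CPM of IRS2 and 257, 259 and 280 CPM of IGFBP5, and in those that read PSAT1 they held 3.96, 4.87 and 4.60 CPM of IRS2 and 103, 92.2 and 96.2 CPM of IGFBP5. IGFBP3 was at 190, 194 and 182 CPM in the former and at 310, 278 and 288 CPM in the latter. IGFBP1 had 0 counts in each of the former and 2 counts in each of the latter. The ratio of IGFBP5 to IGFBP3 in RPKM was 0.961, 0.947 and 1.09 in the former and 0.236, 0.236 and 0.237 in the latter, and that of IRS2 to IRS1 was 1.73, 2.94 and 3.13 in the former and 0.405, 0.470 and 0.391 in the latter. In the former, IGF1R was at 20.6, 20.3 and 30.7 CPM. Outside the members, PGR averaged 19.5 CPM in the former and 110 CPM in the latter, beside 21.7 CPM in P4 treated and 111 CPM in control libraries. TRIB3 averaged 383 CPM in the former and 21.6 CPM in the latter, beside 368 CPM in P4 treated and 19.0 CPM in control libraries. The assignment of the 6 libraries was not tested.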
